A study of Mus musculus with 6 samples.

Results

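The Phase I genes described here encode the first-line oxidizing and hydrolyzing enzymes of xenobiotic, lipid and alcohol metabolism: cytochromes P450 of the Cyp1, Cyp2 and Cyp3 families, flavin-containing monooxygenases (Fmo), alcohol dehydrogenases (Adh), carboxylesterases (Ces) and 6 aldehyde dehydrogenases (Aldh). The genes were selected by symbol among protein-coding genes, by a rule that holds no measured value but was written with earlier results of these data known, which gave 99 of the 55416 genes in the table. RNA-Seq was performed on organoids grown from small intestinal crypts of 3 C57BL/6 mice with the genotype label WT, and each mouse gave 1 culture treated with 50 μg/ml LDL and 1 treated with PBS for 5 days. The 6 libraries therefore form 3 LDL-treated and 3 PBS-treated samples that are paired by animal; the age of the mice is not given in the sources used here. The identifiers of the first and second animal begin with WT and that of mouse 3 does not, although its genotype label is the same; whether mouse 3 differs in origin cannot be told from the labels. Crypts were taken from the duodenum and jejunum, so the cultures hold epithelium without its blood supply, stroma or immune cells, and they were bulk cultures. The libraries held 22061545 to 31073360 reads on genes, and 18S ribosomal RNA (Rn18s-rs5) took 7.62% of the reads in the LDL-treated culture of mouse 1 and 3.02% in the PBS-treated culture of mouse 2, against 0.0826% to 0.225% in the other 4. Genes with at least 1 read numbered 35781, 29870 and 32751 with LDL and 29667, 29285 and 30018 with PBS in mice 1, 2 and 3. The part of either difference in the results was not tested. The comparison asks what 5 days of LDL exposure changed in intestinal epithelium, here for its drug- and alcohol-metabolizing enzymes.

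Cytochromes P450 insert 1 oxygen atom into their substrate with electrons that reach them from NADPH through the reductase Por, and they need heme. Flavin-containing monooxygenases oxidize nitrogen and sulfur atoms, alcohol and aldehyde dehydrogenases turn alcohols into aldehydes and aldehydes into acids, and carboxylesterases split esters, amides and, for some members, acylglycerols. In the small intestine these enzymes sit mainly in enterocytes, where they form part of first-pass metabolism. Several of their genes are targets of ligand-activated transcription factors, such as Ahr for the Cyp1 genes and the pregnane X receptor (Nr1i2) for Cyp3a genes. Many of them lie in clusters of neighboring paralogs, and the order of these genes along the chromosome is used below.

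Levels are given as normalized counts, in which the reads of a gene have been divided by the size factor of the library. A gene was called when its log2(normalized count + 1) differed between LDL and PBS with an adjusted p-value under 0.05 and by more than 1.5-fold, in the moderated test of limma, with p-values adjusted over all 18459 genes that had a mean normalized count of at least 10. A gene was called within mice when it met the same thresholds in a fit that also held the mouse as a block, that is, when the cultures of the same animal were compared with each other. Standard errors (SE) are on the log2 scale and come from the fit without the block unless the block is named. Because the RNA came from whole cultures, fewer cells of a type and less RNA per cell cannot be told apart in any of these values.

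Of the 99 genes, 97 had at least 1 read and 59 passed the filter on the mean. With LDL, 3 of the 59 were called higher (Fmo5, Aldh3a2 and Adh4) and 1 lower (Cyp2c70). Among all genes tested, 0.878% were called higher and 0.395% lower. Within mice the numbers were 11 higher and 15 lower, together 44.1% of the members tested. The same fit called 5.68% of all genes tested higher and 3.46% lower, 9.14% in either direction. Within mice, the Aldh, Ces1 and Ces2 genes included calls in both directions, the Cyp1, Cyp3, Fmo and Adh genes were called higher only and the Cyp2 genes lower only, as the plot of all 59 changes shows. The median log2 fold change of the 59 genes was -0.15, beside -0.02 over all genes tested, with 20 means higher and 39 lower. Values of LDL- and PBS-treated organoids did not overlap for 12 of the 59 members above and 12 of the 59 below. Among all 18459 genes tested, this held for 2196 (11.9%) above and 2275 (12.3%) below. All 3 mice had the same sign for 42 of the 59 members (71.2%), beside 51.1% of all genes tested.

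With 6 libraries the calls depended on single cultures. Leaving out any 1 library kept Fmo5 and Aldh3a2 called, whereas of these 6 fits Adh4 was called in 1, the fit that lacks the LDL culture of mouse 2, and Cyp2c70 in 2, those that lack the LDL culture of mouse 1 or mouse 2. No member was called without the block when both libraries of mouse 3 were left out. With the block, leaving out mouse 1, 2 or 3 gave 10, 11 and 8 members higher and 15, 18 and 7 lower, and 15 of the 26 members were called in all 3 of these fits. All 26 had an adjusted p under 0.05 in edgeR and in DESeq2 with the block.

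**Figure D1:**
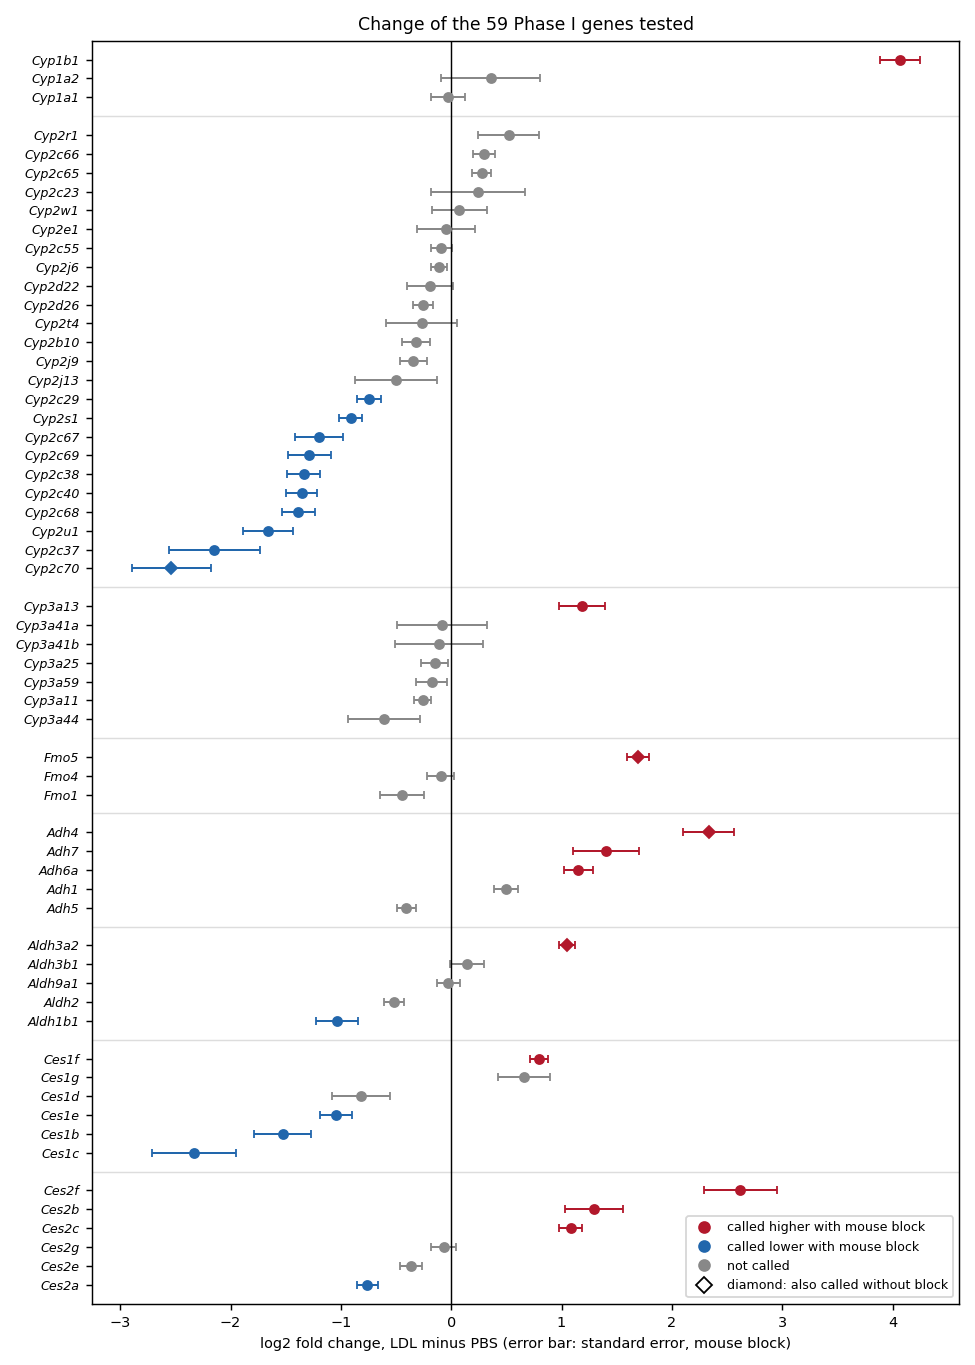
Log2 fold change (LDL minus PBS) of each of the 59 Phase I genes tested, grouped by family, with the standard error of the fit with the mouse block. Red and blue mark the 11 genes called higher and the 15 called lower within mice, diamonds mark the 4 that were also called without the block, and Cyp1b1 lies farthest to the right at 4.07.

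In these cultures the epithelial markers were present and those of other tissues were near 0. Summed normalized counts of 6 epithelial markers were 93420 to 126300 with LDL and 82820 to 86230 with PBS, and those of 6 stromal markers did not exceed 34.2 in any library. Markers of enterocytes, the cells in which most of these enzymes are made, did not move as one: of 11, 6 were called higher within mice (Alpi also without the block), 1 was called lower (Lct), and their sums ranged from 68160 to 103600 with LDL and from 46280 to 84940 with PBS. All 4 markers of fetal-like epithelium that could be tested (among them Clu, Ly6a and Anxa1) were called higher within mice. Of 6 goblet cell markers, 2 were called lower without the block (Fcgbp and Agr2, with Tff3 added within mice) and 1 higher in both fits (Clca1, log2 fold change 2.81). Their summed normalized counts, most of which are Fcgbp and Muc2, were 26540 to 31860 with LDL and 44020 to 49710 with PBS. Of 8 Paneth cell markers, 3 were called lower and 1 higher within mice. Of 6 stem cell markers, 2 were called lower (Olfm4 and Smoc2) and 1 higher (Ascl2) within mice. No Paneth or stem cell marker was called without the block. The part of these shifts in the enzyme changes was not tested. Defining hepatocyte genes were low in all libraries, with Alb at 9.20 to 17.9 normalized counts and Cyp8b1 without a read in 5 of 6. Ttr, which endocrine cells of the gut also express, was the exception. It had 40.3, 155 and 97.0 normalized counts with LDL and 334, 368 and 515 with PBS. Ttr was called lower within mice (log2 fold change -2.22, adjusted p = 0.00289) and not without the block (adjusted p = 0.0588).

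The promoters of the Cyp1 genes are shown first because 1 of the 3 genes of this family had the largest change of all members and the other 2 were not called. Ahr and its partner Arnt bind the core GCGTG, which was searched on both strands from 250 bases before to 50 bases after the start of each gene's canonical transcript in GRCm39 with GENCODE M39. For Cyp1a1 and Cyp2c70 that start lies inside the annotated gene, which other transcripts extend. The core was found in 37% of 21770 protein-coding promoters and in 20 of the 99 Phase I promoters, 20.2%. The stretches below are the 250 bases before the start, read along the gene, with the core in capitals (CACGC is the same core on the other strand).
Cyp1a1, chr9:57603892-57604141, plus strand: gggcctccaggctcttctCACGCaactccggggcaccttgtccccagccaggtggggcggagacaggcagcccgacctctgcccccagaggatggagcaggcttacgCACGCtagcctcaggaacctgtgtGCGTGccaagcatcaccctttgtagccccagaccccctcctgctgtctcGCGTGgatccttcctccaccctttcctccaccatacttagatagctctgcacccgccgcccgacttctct
Cyp1b1, chr17:80022533-80022782, minus strand: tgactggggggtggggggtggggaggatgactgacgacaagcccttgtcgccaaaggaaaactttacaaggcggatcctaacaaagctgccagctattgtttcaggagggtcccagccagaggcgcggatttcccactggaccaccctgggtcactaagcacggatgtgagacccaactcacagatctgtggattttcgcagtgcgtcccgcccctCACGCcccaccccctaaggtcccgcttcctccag
Cyp1a1 held 4 matches and Cyp1b1 held 1, and Cyp1a2 held 0. A match is a description of the letters and not a binding site.

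Cyp1b1, which hydroxylates polycyclic aromatic hydrocarbons and estrogens and oxidizes fatty acids and retinoids, had the largest fold change of the 59 members tested. Its normalized counts were 567, 152 and 608 in LDL-treated organoids of mice 1, 2 and 3, and 33.7, 6.21 and 44.0 in the PBS-treated organoids of the same mice. Each LDL value lay above every PBS value, and mouse 2 was the lowest of the 3 in both treatments. Within a mouse the level was 13.8- to 24.4-fold higher with LDL, a log2 fold change of 4.07 (SE 0.77, and 0.18 with the mouse block). It was not called without the block (adjusted p = 0.0537) and was called within mice (adjusted p = 2.67e-05). Cyp1a1, the classical inducible gene of the family, had 233, 442 and 457 normalized counts with LDL and 189, 616 and 431 with PBS. The groups overlapped and the mice moved in different directions, with a log2 fold change of -0.03 (SE 0.44) and an adjusted p of 0.982, and its sign changed under other settings. In the fit with the mouse block the 95% interval of that change ran from -0.38 to 0.32, whereas that of Cyp1b1 ran from 3.64 to 4.49. Cyp1a2 was near the filter at 2.04 to 23.6 normalized counts, and its interval of -0.68 to 1.40 leaves its change undetermined at this depth. Per kilobase of exon, Cyp1b1 stood at 0.0962, 0.00544 and 0.0551 times the level of Cyp1a1 in PBS-treated organoids of mice 1, 2 and 3 and at 1.31, 0.185 and 0.717 times that level in LDL-treated ones. This pair, like the other ratios below, was chosen after its values were seen.

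Of the genes of the Ahr system that were listed, Ahrr was the one called, and this within mice. Ahr itself had 693, 786 and 712 normalized counts with LDL and 659, 920 and 778 with PBS, a log2 fold change of -0.09 (95% interval with the block -0.31 to 0.12). Arnt had a log2 fold change of -0.13 and Tiparp, an Ahr target that feeds back on the receptor, one of 0.10, and neither was called in either fit. Ahrr, the Ahr repressor, had 57.3, 28.2 and 40.1 normalized counts with LDL and 16.3, 7.46 and 12.2 with PBS. Its values did not overlap, and it was called within mice (log2 fold change 1.73, adjusted p = 0.00503) but not without the block (adjusted p = 0.0756).

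**Figure D2:**
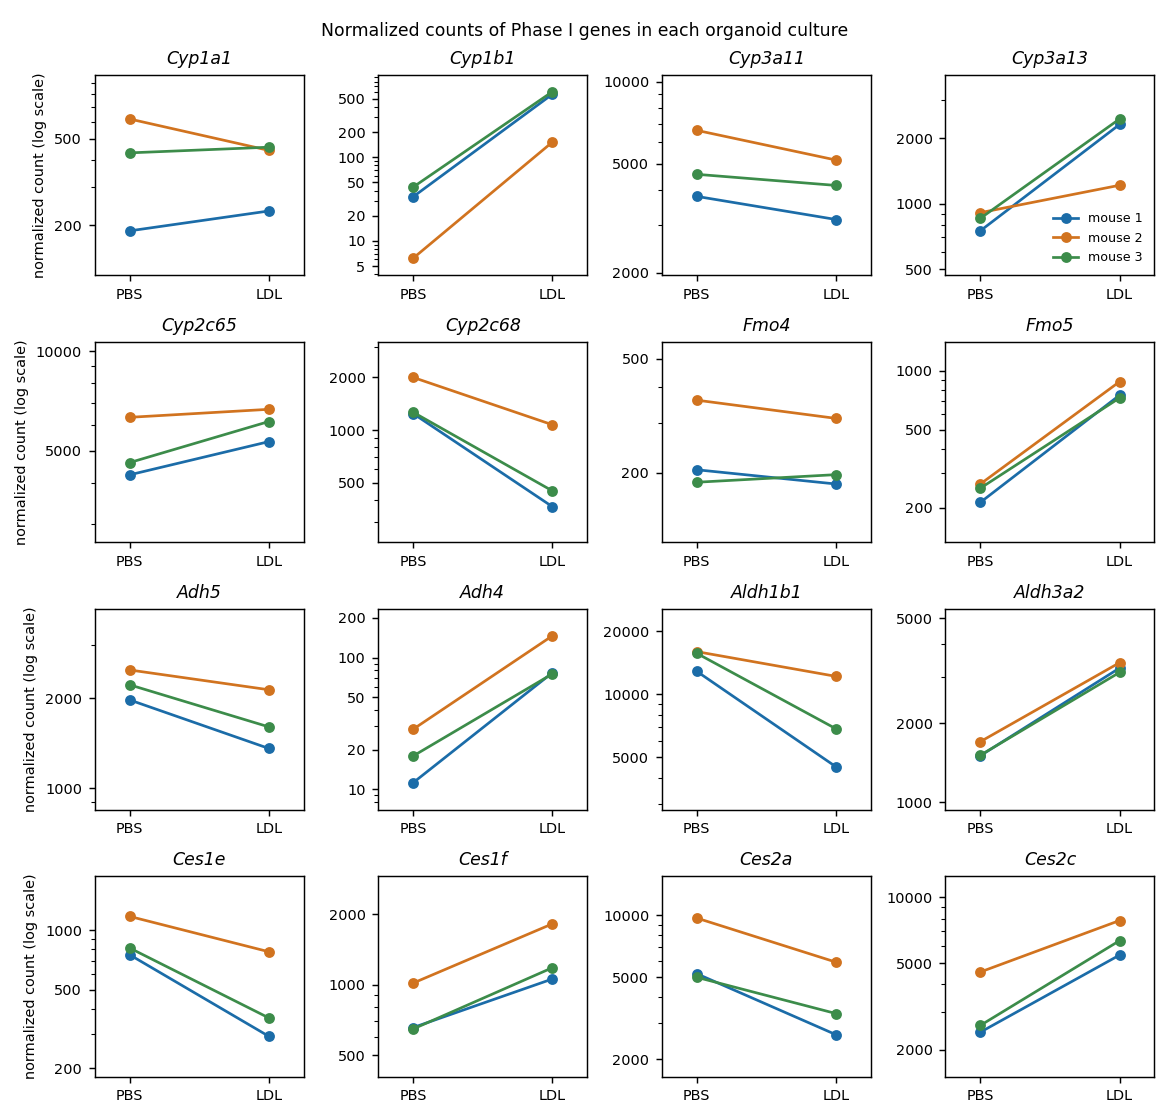
Normalized count (log axis) of 16 Phase I genes in the PBS- and LDL-treated culture of each mouse, joined by mouse. Lines of Cyp1b1, Cyp3a13, Fmo5, Adh4, Aldh3a2, Ces1f and Ces2c slope upward in all 3 mice, those of Cyp2c68, Adh5, Aldh1b1, Ces1e and Ces2a slope downward, and those of Cyp1a1 and Fmo4 cross or stay flat.

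Of the flavin-containing monooxygenases, Fmo5 was the one called in either fit. Fmo5 differs from its relatives in catalyzing Baeyer-Villiger oxidations and is the form most expressed in gut and liver; it lies on chromosome 3 from 97531564 to 97562598. Normalized counts were 749, 878 and 725 with LDL and 212, 263 and 251 with PBS, so that the lowest LDL value was well above the highest PBS value. Fmo5 rose by a log2 fold change of 1.69 (SE 0.13, adjusted p = 0.0021; within mice adjusted p = 0.000108), or 2.89- to 3.53-fold within a mouse. Fmo4 had 183, 310 and 197 normalized counts with LDL and 205, 359 and 186 with PBS, a log2 fold change of -0.10 (95% interval with the block -0.38 to 0.18; its sign changed under other settings). Fmo1 was low at 43.9 to 139 normalized counts and was not called in either fit (log2 fold change -0.44). The other 4 genes of the family were under the filter. Per kilobase, the Fmo5 level was 0.582, 0.413 and 0.760 times that of Fmo4 in PBS-treated and 2.30, 1.59 and 2.07 times in LDL-treated organoids.

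Among the Cyp3a genes, which encode the main drug-oxidizing enzymes of gut and liver, Cyp3a13 alone was called within mice, and none was called without the block. Cyp3a13 had 2309, 1214 and 2448 normalized counts with LDL and 749, 908 and 855 with PBS. All LDL values were above all PBS values, but the LDL level was 1.34-fold the PBS level in mouse 2 and 3.08- and 2.86-fold in mice 1 and 3. The log2 fold change was 1.19 (SE 0.25, adjusted p = 0.0672), and it was called within mice (adjusted p = 0.009). Cyp3a11, the most abundant member of the family per kilobase, had 3132, 5168 and 4173 normalized counts with LDL and 3806, 6637 and 4583 with PBS. It was lower with LDL in each mouse, by a log2 fold change of -0.26 (95% interval with the block -0.44 to -0.08), and was not called in either fit (adjusted p = 0.608, within mice 0.0652). Cyp3a25 and Cyp3a59 also overlapped between treatments, at log2 fold changes of -0.15 and -0.18, the first with a sign that changed under other settings. The pregnane X receptor gene Nr1i2 had 1148 to 1525 normalized counts with LDL and 1141 to 1353 with PBS, a log2 fold change of 0.10. Cyp3a41a and Cyp3a41b share 90.6% and 88.1% of their read-length windows with other genes, mostly with each other, their reads differed by at most 1 in any library, and they are therefore 1 measurement. Cyp2t4, Cyp2u1 and Adh1 overlap exons of genes on the opposite strand (Egln2, 4930534D22Rik and Gm16559), and without the strand setting of the counting their reads cannot be told apart there.

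The Cyp2 family was the largest, with 49 genes, of which 24 were tested. Within mice 10 of them were called lower and 0 higher, and 1 (Cyp2c70) was called without the block, where 10 of the 24 had an unadjusted p under 0.05, beside 3634 of the 18459 genes tested (19.7%). Of these 10, 8 belong to the Cyp2c cluster on chromosome 19, whose 14 genes lie between positions 38995462 and 40175777. Cyp2c enzymes epoxidize and hydroxylate arachidonic acid and many drugs. In chromosomal order, the first 3 genes, Cyp2c55, Cyp2c65 and Cyp2c66, were not called in either fit, and the other 8 that could be tested were all called lower within mice. Cyp2c39, Cyp2c54 and Cyp2c50 were under the filter.

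The first 3 genes of the cluster were also the most abundant Cyp members per kilobase. Cyp2c65 had 5337, 6680 and 6137 normalized counts with LDL and 4236, 6318 and 4612 with PBS. It was higher with LDL in each mouse, but by no more than 1.33-fold, with a log2 fold change of 0.28 (95% interval with the block 0.07 to 0.48). Cyp2c66 had 3342, 5735 and 4323 with LDL and 2840, 5347 and 2955 with PBS, a log2 fold change of 0.29. Cyp2c55 had 5776, 7020 and 6830 with LDL and 6024, 8687 and 6379 with PBS, a log2 fold change of -0.09 (95% interval -0.31 to 0.13) whose sign changed under other settings. For all 3 genes mouse 2 had the highest value in both treatments.

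The next gene in the row, Cyp2c29, had 2835, 5510 and 4951 normalized counts with LDL and 5627, 9701 and 6665 with PBS. All its LDL values lay below its PBS values, by a log2 fold change of -0.74 (SE 0.28, and 0.11 with the block; adjusted p = 0.197, within mice 0.00492). Cyp2c29 overlaps the pseudogene Cyp2c53-ps on the same strand by 142 exonic bases, so its reads are not fully its own. Cyp2c38 was at 52.5, 97.3 and 51.0 with LDL and 132, 250 and 131 with PBS, nearly the same ratio in each mouse, 0.389 to 0.398. Cyp2c68 had 365, 1072 and 449 normalized counts with LDL and 1242, 1999 and 1264 with PBS. The groups of Cyp2c68 did not overlap, and the log2 fold change was -1.39 (SE 0.38, and 0.15 with the block; adjusted p = 0.114, within mice 0.00137). Cyp2c40 was similar, with 192, 461 and 181 against 537, 890 and 563 and a log2 fold change of -1.35 (within mice adjusted p = 0.00109).

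Cyp2c67 and Cyp2c69 had log2 fold changes of -1.20 and -1.29, and LDL and PBS values overlapped between mice for both. Cyp2c67, Cyp2c68, Cyp2c40 and Cyp2c69 share 17.3%, 18.2%, 29.1% and 30.9% of their windows with other genes, mostly with each other, so how reads were split among these 4 genes is uncertain. At the end of the cluster, Cyp2c70, which makes muricholic acids in mouse liver, was low, with 3, 11 and 6 reads with LDL and 39, 29 and 48 with PBS. Cyp2c70 fell by a log2 fold change of -2.54 (SE 0.38, adjusted p = 0.025; within mice 0.00391). Cyp2c37 had 2.44, 7.28 and 5.85 with LDL and 29.6, 24.9 and 20.4 with PBS, a log2 fold change of -2.15 (within mice adjusted p = 0.0125). At these levels a log2 value with 1 added understates the change. The plot of the 4 clusters in gene order shows the step between Cyp2c66 and Cyp2c29.

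**Figure D3:**
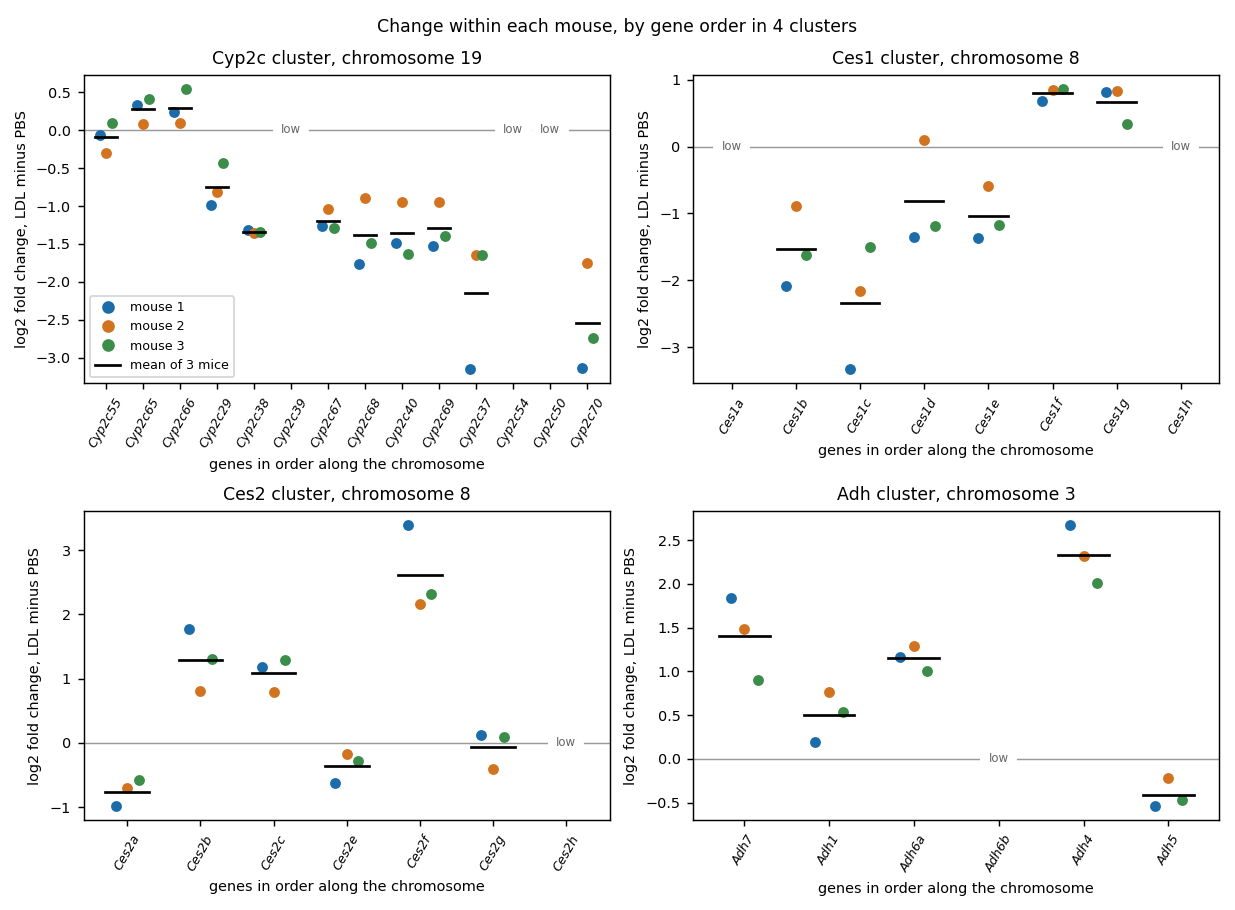
Log2 fold change (LDL minus PBS) within each mouse (colored points) and its mean (black bar) for the genes of the Cyp2c, Ces1, Ces2 and Adh clusters, in order along the chromosome; "low" marks genes under the filter. In the Cyp2c cluster the first 3 means lie between -0.09 and 0.29 and the other 8 between -0.74 and -2.54, whereas in the Ces2 cluster the mean of Ces2a is below 0 and those of its neighbors Ces2b and Ces2c are above.

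Promoters from both sides of that step are shown because they belong to close paralogs with different changes. A search for CAAAGTCCA, a letter run resembling the element that Hnf4a binds and chosen after these sequences had been seen, found exact matches in 0.45% of all promoters of the same length and in 9 of the 99 Phase I promoters, 9.09%. With up to 1 mismatch the shares were 8.39% and 31.3%, on both strands. Each stretch holds 130 bases before the start of the canonical transcript, read along the gene in GRCm39, with the match of up to 1 mismatch in capitals.
Cyp2c55 (not called), chr19:38995332-38995461, plus strand: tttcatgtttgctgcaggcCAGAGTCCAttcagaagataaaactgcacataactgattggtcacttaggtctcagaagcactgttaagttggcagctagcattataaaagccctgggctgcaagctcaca
Cyp2c65 (not called), chr19:39049329-39049458, plus strand: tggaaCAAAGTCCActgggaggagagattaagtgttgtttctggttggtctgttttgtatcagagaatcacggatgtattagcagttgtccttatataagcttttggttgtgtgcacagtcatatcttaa
Cyp2c66 (not called), chr19:39102212-39102341, plus strand: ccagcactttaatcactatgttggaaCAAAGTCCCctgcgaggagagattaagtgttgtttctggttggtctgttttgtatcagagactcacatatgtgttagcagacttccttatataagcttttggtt
Cyp2c68 (lower within mice), chr19:39729554-39729683, minus strand: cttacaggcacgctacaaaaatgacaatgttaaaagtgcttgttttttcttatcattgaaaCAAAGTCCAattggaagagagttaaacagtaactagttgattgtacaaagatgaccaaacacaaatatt
Cyp2c40 (lower within mice), chr19:39801259-39801388, minus strand: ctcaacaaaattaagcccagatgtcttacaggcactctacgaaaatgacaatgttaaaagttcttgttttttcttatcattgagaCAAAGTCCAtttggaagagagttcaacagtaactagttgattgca
Cyp2c70 (lower within mice), chr19:40175732-40175861, minus strand: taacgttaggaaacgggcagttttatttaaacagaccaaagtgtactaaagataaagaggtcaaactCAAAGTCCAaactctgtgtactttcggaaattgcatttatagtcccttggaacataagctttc
The run was present on both sides of the step, as an exact match in Cyp2c65 and in Cyp2c68, Cyp2c40 and Cyp2c70. Because the run was chosen after the sequences had been seen, whether it goes with the calls was not tested. Over the 250 bases before the start, the Cyp2c65 and Cyp2c66 promoters were 79.6% identical and those of Cyp2c68 and Cyp2c40 86% identical, and Cyp2c65 and Cyp2c40 shared 54.4%. A direct repeat of the kind that Ppar and Rxr bind, with AGGTCA on each side of 1 base of any kind and up to 2 mismatches on either strand, was found in 3.46% of all promoters and in 12 of the 99 Phase I promoters (12.1%). It can overlap CAAAGTCCA. Of the 26 members called within mice, Cyp2c29 alone had a match. TGACNNNGC, the core that Nfe2l2 binds, was found in 12.5% of all promoters and in 5 Phase I promoters (5.05%). The orientation of the Cyp2c genes also differed, with the first 4 tested genes, Cyp2c29 included, and Cyp2c37 on the plus strand and the other 6 on the minus strand. Hnf4a itself had 16970 to 19270 normalized counts with LDL and 19940 to 21070 with PBS, a log2 fold change of -0.20 that was not called in either fit.

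Outside the cluster, 2 further Cyp2 genes were called lower within mice. Cyp2u1, a hydroxylase of long-chain fatty acids, had 75.6, 236 and 126 normalized counts with LDL and 408, 618 and 286 with PBS. The groups did not overlap, with a log2 fold change of -1.66 (SE 0.42, and 0.22 with the block; adjusted p = 0.0996, within mice 0.00329). Cyp2s1, an extrahepatic form that metabolizes retinoic acid and eicosanoids, had 333, 593 and 276 with LDL and 615, 993 and 597 with PBS (log2 fold change -0.91, within mice adjusted p = 0.00155). Its highest LDL value, that of mouse 2, lay just below its lowest PBS value, that of mouse 3. Cyp2b10, a gene induced by the constitutive androstane receptor, had 1636, 4442 and 2770 with LDL and 2691, 4519 and 3192 with PBS and was not called (log2 fold change -0.32, 95% interval with the block -0.61 to -0.02). Cyp2d26 and Cyp2j6, both abundant, were not called either, at log2 fold changes of -0.25 and -0.11.

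Alcohol dehydrogenases included 3 genes called higher within mice and 1 called without the block. They form a cluster on chromosome 3 that runs from Adh7 over Adh1, Adh6a, Adh6b and Adh4 to Adh5. Adh4, which oxidizes retinol and longer alcohols, had 76.8, 146 and 75.3 normalized counts with LDL and 11.2, 28.6 and 17.9 with PBS. Adh4 rose by a log2 fold change of 2.33 (SE 0.40, adjusted p = 0.0395; within mice 0.000858), or 4.20- to 6.84-fold within a mouse. Adh6a had 187, 363 and 247 with LDL and 82.7 to 148 with PBS, with no overlap and a log2 fold change of 1.15 (adjusted p = 0.0996, within mice 0.00161). Adh7, the retinol-oxidizing form of the upper digestive tract, was low at 35.4, 43.7 and 25.1 against 9.19, 14.9 and 13.0, a log2 fold change of 1.41 (within mice adjusted p = 0.0187). The 3 genes called within mice are the less abundant of the 5 tested in the cluster; Adh6b was under the filter.

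Adh1, the main ethanol-oxidizing form, was the most abundant Adh gene, with 1648, 6509 and 2616 normalized counts with LDL and 1442, 3850 and 1806 with PBS. Differences between mice were larger than the difference between treatments, and Adh1 stayed below the fold threshold (log2 fold change 0.49, adjusted p = 0.66, within mice 0.0213). Adh5, the glutathione-dependent formaldehyde dehydrogenase found in all tissues, had 1358, 2133 and 1603 with LDL and 1973, 2484 and 2216 with PBS. Its values were lower with LDL in every mouse, whereas those of the other 4 tested genes of the cluster were higher, with a log2 fold change of -0.41 (95% interval with the block -0.61 to -0.21), and was under the fold threshold as well (within mice adjusted p = 0.0184).

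Aldehyde dehydrogenases were called in both directions. Aldh3a2, the microsomal fatty aldehyde dehydrogenase on chromosome 11 (61114243 to 61158841), had 3231, 3386 and 3111 normalized counts with LDL and 1503, 1699 and 1509 with PBS. The replicates lay close together, and Aldh3a2 rose by a log2 fold change of 1.05 (SE 0.09, adjusted p = 0.00339; within mice 0.000177). The mitochondrial Aldh1b1 was the most abundant of the Phase I genes per kilobase, with 4512, 12190 and 6852 normalized counts with LDL and 12890, 16000 and 15710 with PBS. Its groups did not overlap, and it was called lower within mice (log2 fold change -1.03, SE 0.32 and 0.19 with the block; adjusted p = 0.136, within mice 0.01). The change was smallest in mouse 2, at 0.762 of the PBS level, and larger in mice 1 and 3, at 0.350 and 0.436. Aldh2, the mitochondrial enzyme that clears acetaldehyde, had 1753, 2407 and 2238 with LDL and 2858, 3022 and 3217 with PBS, without overlap, but its log2 fold change of -0.52 was under the fold threshold (within mice adjusted p = 0.00841). Aldh9a1 overlapped between treatments at 3558 to 5528 and 4126 to 4609 (log2 fold change -0.03, 95% interval with the block -0.27 to 0.21; its sign changed under other settings). Aldh3a1 was under the filter, with 14, 3 and 19 reads with LDL and 2, 1 and 1 with PBS.

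Carboxylesterases of the Ces1 and Ces2 groups lie in 2 clusters on chromosome 8, and each held genes that moved in opposite directions. Ces2 enzymes hydrolyze drugs and acylglycerols in the intestine. Ces2c had 5445, 7840 and 6338 normalized counts with LDL and 2412, 4552 and 2590 with PBS. No LDL value fell below a PBS value, with a log2 fold change of 1.08 (SE 0.25, and 0.11 with the block; adjusted p = 0.0789, within mice 0.000856). Ces2a, at the start of the same cluster, had 2637, 5931 and 3340 with LDL and 5215, 9710 and 5009 with PBS. It was lower in each mouse although the groups overlapped, because mouse 2 was highest in both (log2 fold change -0.76, SE 0.34 and 0.09 with the block; adjusted p = 0.27, within mice 0.00236). Per kilobase, Ces2c stood at 0.581, 0.589 and 0.650 times the level of Ces2a in PBS-treated organoids and at 2.59, 1.66 and 2.38 times that level in LDL-treated ones. Ces2c shares 58% of its windows with other annotated genes, of which Gm64957 shares the most, and Ces2a shares 10.6%, so the split of reads at these genes is uncertain.

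Between and beyond them, Ces2b and Ces2f were called higher within mice and were much less abundant. Ces2f had 127, 20.0 and 52.7 normalized counts with LDL and 11.2, 3.73 and 9.77 with PBS, a log2 fold change of 2.62 (adjusted p = 0.0996, within mice 0.00257). In Ces2f, as in Cyp1b1, mouse 2 was the lowest in both treatments, which held for 4 of the 59 members tested. Ces2b had 75.6, 40.0 and 57.7 against 21.4, 22.4 and 22.8 (log2 fold change 1.30, within mice adjusted p = 0.015). Ces2e and Ces2g were abundant and not called, at log2 fold changes of -0.36 and -0.07. The summed level of the Ces2 genes per kilobase was 4307, 7194 and 5049 with LDL and 4173, 7383 and 4166 with PBS, and these sums overlapped between treatments.

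Of the Ces1 genes, which encode lipid-hydrolyzing forms, Ces1f was called higher within mice and Ces1b, Ces1c and Ces1e were called lower. Ces1f had 1057, 1818 and 1181 normalized counts with LDL and 655, 1015 and 646 with PBS, with all LDL values above all PBS values (log2 fold change 0.80, within mice adjusted p = 0.000968). Its neighbor Ces1e had 290, 777 and 360 with LDL and 750, 1172 and 812 with PBS, a log2 fold change of -1.04 (SE 0.35, and 0.14 with the block; within mice adjusted p = 0.00362). Ces1e overlapped between treatments only through mouse 2. Ces1b and Ces1c were low, at 22.0 to 35.1 against 64.6 to 110 and at 3.66 to 14.2 against 42.3 to 52.2 (log2 fold changes -1.53 and -2.33). Ces1d was not called in either fit (log2 fold change -0.82): mouse 2 had 276 normalized counts with LDL and 259 with PBS, while in mice 1 and 3 the LDL value was under the PBS value. Ces1g had 42.6 to 43.9 with LDL and 23.6 to 33.4 with PBS and was not called (log2 fold change 0.66). Per kilobase, the Ces1f level was 0.644, 0.639 and 0.587 times that of Ces1e in PBS-treated and 2.69, 1.73 and 2.42 times in LDL-treated organoids. None of the 4 Ces3 to Ces5 genes passed the filter. Among them, Ces3a had 6, 13 and 12 reads with LDL and 0 in each PBS-treated library, which makes it at least 9.99-fold higher when 3 reads are allowed over the PBS group.

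Mouse 2 stood apart from the other mice for most Phase I genes, whichever the treatment. It had the highest value in both treatments for 39 of the 59 members tested (66.1%), beside 19.7% of all genes tested, and the lowest in both for 4 (6.78%), beside 16.4%. The log2 level of mouse 2 was above the mean of mice 1 and 3 in both treatments for 45 members, below it in both for 7, and on different sides for 7. Reads on all members made up 0.409% of the library of mouse 2 with LDL and 0.420% with PBS, against 0.214% and 0.318% with LDL and 0.303% and 0.327% with PBS in mice 1 and 3. Enterocyte markers were highest in mouse 2 in both treatments for 8 of 11 genes, and the 4 fetal-like markers tested were lowest there. Most enterocyte markers were thus highest in the mouse where most of the enzymes were, and the fetal-like markers were lowest there. The part of either marker group was not tested. The plot of mouse 2 against the other mice shows Cyp1b1 and Ces2f on the other side, with mouse 2 lower by log2 differences of -2.45 and -1.28 in PBS-treated organoids.

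**Figure D4:**
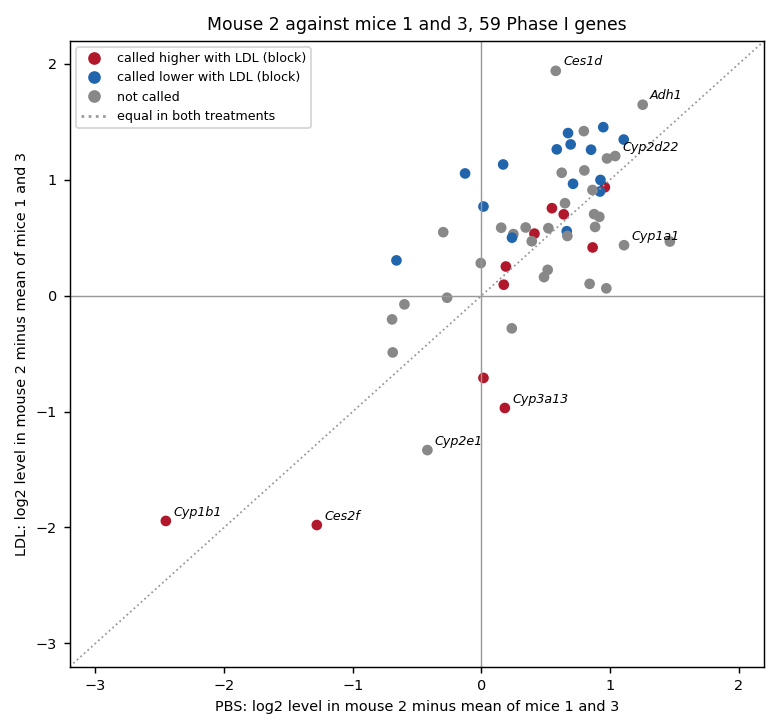
Log2 level in mouse 2 minus the mean of mice 1 and 3 for the 59 Phase I genes tested, in PBS-treated (horizontal) and LDL-treated organoids (vertical); the dotted line marks equal values and colors mark calls within mice. Of the points, 45 lie above 0 on both axes and 7 below 0 on both, with Cyp1b1 and Ces2f far to the lower left.

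Proteins that work with the Phase I enzymes were described through a list of 59 genes, of which 58 were found and 53 tested. Without the block 6 were called higher and 0 lower, beside 0.878% and 0.395% of all genes tested. In that fit 15 of the 53 had an unadjusted p under 0.05, beside 19.7% of all genes tested. Within mice 10 were called higher and 3 lower (24.5% of the 53), beside 5.68% and 3.46% of all genes tested (9.14% in either direction). Por, which passes electrons to all microsomal cytochromes P450, had 5561, 6751 and 6174 normalized counts with LDL and 2791, 3432 and 3144 with PBS. Por rose by a log2 fold change of 0.98 (SE 0.11, adjusted p = 0.0113; within mice 0.000235). The other 5 electron donors, cytochrome b5 forms, their reductases and Pgrmc1, were not called in either fit. Cyb5b, the most abundant of this group, is among them.

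Of the 10 genes of heme synthesis and breakdown, Hmox1 was the one called. Hmox1, which breaks heme down and responds to oxidative stress, had 238, 121 and 274 normalized counts with LDL and 47.0, 44.7 and 56.2 with PBS and rose by a log2 fold change of 2.00 (SE 0.31, adjusted p = 0.0288). The 8 genes of heme synthesis in the list, among them the rate-limiting Alas1 (log2 fold change 0.29) and the most abundant one, Cpox, were not called in either fit, nor was Hmox2. The epoxide hydrolases Ephx1 and Ephx2, which open the epoxides made by cytochromes P450, were under the fold threshold, at log2 fold changes of 0.36 and 0.55. Of the 11 sensors, Ppard was called within mice beside Ahrr, at 1220, 568 and 1048 normalized counts with LDL and 615, 440 and 551 with PBS (log2 fold change 0.76, within mice adjusted p = 0.00777), and it was not called without the block (adjusted p = 0.183).

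Other oxidases and reductases gave the remaining calls. Akr1b8, an aldo-keto reductase that reduces lipid aldehydes, had 4266, 3198 and 4469 normalized counts with LDL and 467, 259 and 570 with PBS and rose by a log2 fold change of 3.26 (SE 0.28, adjusted p = 0.00339). Aldh1a1, which makes retinoic acid, Xdh, the xanthine dehydrogenase, and the carbonyl reductase Cbr3 rose by log2 fold changes of 1.24, 1.16 and 1.05. Within mice Aldh1a3 (1.89) and Akr1b10 (0.76) were also called higher. Akr1c14, a 3-alpha-hydroxysteroid dehydrogenase, had 65.9, 329 and 104 with LDL and 451, 1359 and 640 with PBS, and was called lower within mice (log2 fold change -2.47, adjusted p = 0.0916 without the block and 0.000114 with it). Maob, a mitochondrial amine oxidase, and Aldh6a1, the mitochondrial methylmalonate semialdehyde dehydrogenase, were also called lower within mice, at -1.51 and -0.83. Aldh6a1 shares 4382 of its 7416 exonic bases with Bbof1 on the opposite strand. Without the strand setting of the counting, the reads of these 2 genes cannot be told apart there. Nqo1, a quinone reductase that Ahr ligands and oxidative stress both induce, had 1170, 1701 and 1659 against 945, 1306 and 1137, which was under the fold threshold (log2 fold change 0.41, within mice adjusted p = 0.0144). The most abundant gene of this group, Akr1c13, was not called in either fit. Of the 6 partners called without the block, Akr1b8 was called in all 6 fits that leave out 1 library, whereas Por and Aldh1a1 lost the call in 3 of these fits, Xdh and Cbr3 in 4 and Hmox1 in 5.

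**Figure D5:**
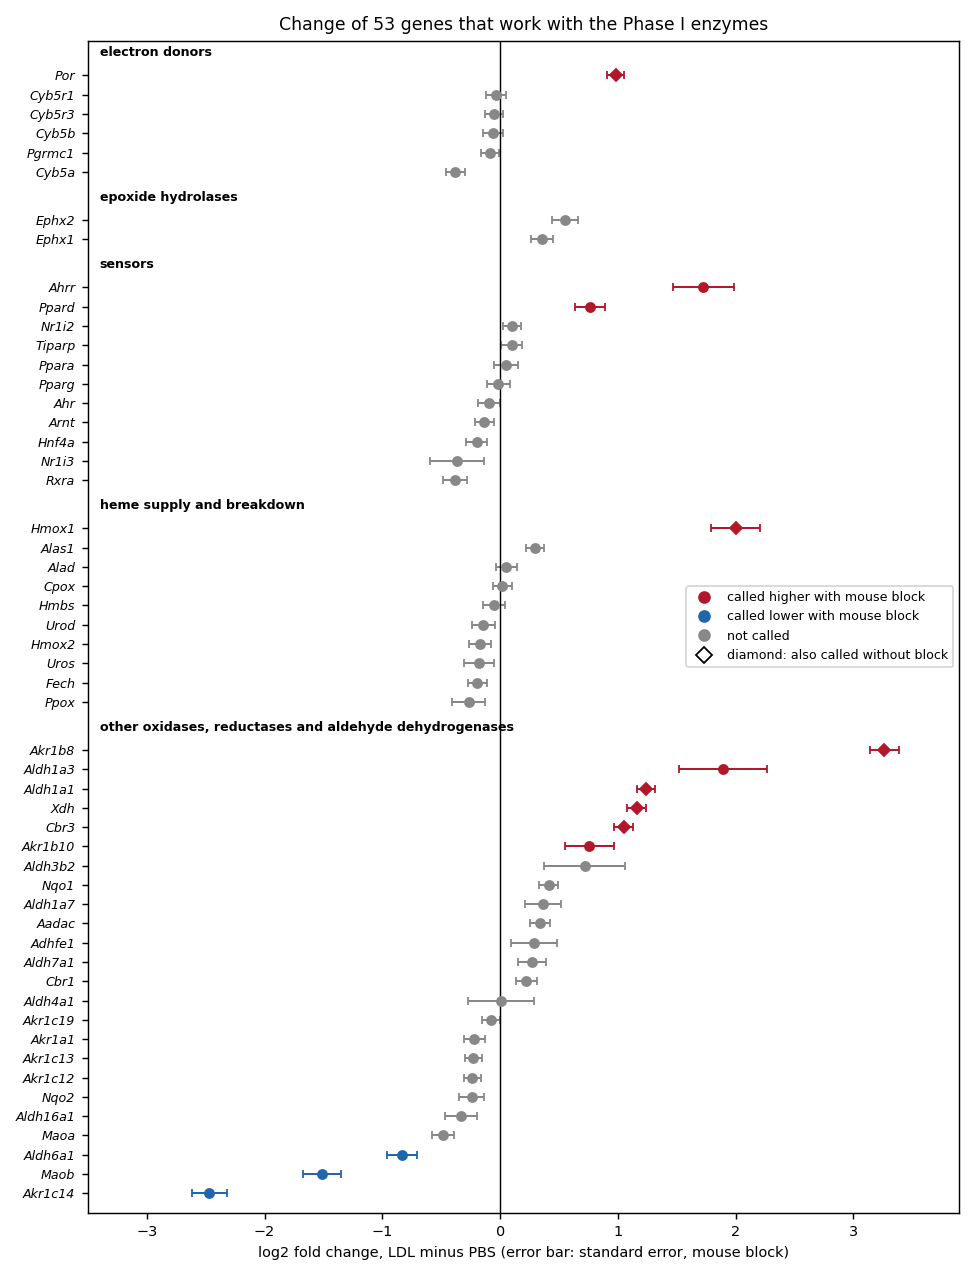
Log2 fold change (LDL minus PBS) of the 53 tested genes that work with the Phase I enzymes, in 5 groups, with the standard error of the fit with the mouse block. Diamonds mark the 6 genes called without the block, of which Akr1b8 lies farthest to the right at 3.26, and colors mark the 10 called higher and 3 called lower within mice.

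The remaining 40 members were under the filter, and the highest mean among them was 8.92 normalized counts (Cyp2j8) and the lowest mean above the filter was 10.8 (Cyp2c23). Cyp2d12 had no read in any library, which allows up to 3 reads. Without any filter on the mean, 10 members were called higher and 8 lower in the fit without the block, beside 506 and 245 of all genes. Per kilobase, the members ordered by their mean level began with Aldh1b1 at 4667, Cyp2c65 at 2880, Cyp2c55 at 2723, Cyp2c66 at 2102 and Ces2c at 2047 normalized counts, and 22 members had a mean normalized count of at least 1000.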

How the data were processed

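RNA-Seq of 6 organoid cultures (3 LDL, 3 PBS) was analyzed. The authors extracted total RNA with TRIzol, removed ribosomal RNA, made TruSeq stranded libraries, aligned reads to GRCm39 with STAR, counted them with featureCounts and used DESeq2; per the labels base calls came from bcl2fastq 2.20. The strand setting and the handling of reads with several matches are not given in the sources used here. The deposited signal values are normalized counts, and 100% of them were whole reads (tolerance 0.02 reads) after multiplication by 1 size factor per library. Depth was 22061545 to 31073360 reads per library; the limit of 3 reads for a count of 0 covers counting error only.

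Identifiers were matched to GENCODE M39 (54749 found, 667 not); 27 further rows met the symbol rule but were not protein coding. R 4.3.3 with limma 3.58.1 (eBayes with trend, two-sided, Benjamini-Hochberg) was run on log2(normalized count + 1) for genes whose mean reached 10. The mouse was no term of the main fit, since the study's methods name none for the RNA-Seq. For its other measurements they name paired or unpaired t-tests. Libraries of the same replicate number share an animal identifier, and after removal of treatment means they correlated at r = 0.484, 0.421 and 0.462 across genes, so the fit with the mouse as a block stands beside it. Alternatives were pseudocounts, filters, scalings, libraries left out, and edgeR 4.0.16 and DESeq2 1.42.0 on the recovered reads. Levels per kilobase divide by exonic length, and windows of 1 read length were compared between transcripts.

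The symbol rule for the members uses no measured value, but it and the lists were chosen with earlier results of these data known. Named genes were members called in either fit, the 3 most abundant per kilobase in each family, members without overlap and with a mean of at least 100, and partners called in either fit or most abundant in their group; other genes were named after their values were seen. Python 3.11.15 with matplotlib 3.10.9, numpy 2.4.6 and pandas 2.3.3 was used for tables and plots. Results for some genes are left out.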

Additional observations from a re-analysis of the deposited data

How the results depend on the processing

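Without the block, 162 genes were called higher and 73 lower, of which Phase I genes 3 and 1 and partner genes 6 and 0 (no partner called lower, although 15 of the 53 had an unadjusted p under 0.05, beside 19.7% of all genes tested). The mouse block gave 1048 and 639 for all genes, 11 and 15 for Phase I genes, and 10 and 3 for partners. With edgeR these counts were 186 and 70, 4 and 4, and 6 and 0, and with edgeR and the block 1171 and 588, 11 and 15, and 10 and 3. With DESeq2 they were 846 and 348, 11 and 9, and 9 and 2, and with DESeq2 and the block 981 and 511, 11 and 16, and 10 and 3. Without a filter on the mean they were 506 and 245, 10 and 8, and 7 and 2. Phase I genes called lower numbered 3 with a pseudocount of 5 or upper-quartile scaling, 2 with quantile normalization and 0 with a mean of at least 50, which leaves out Cyp2c70. Pseudocounts and scalings otherwise moved no count by more than 1.5 times, and neither did dropping the fold threshold.

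Leaving out 1 library gave 18 to 1179 genes higher and 2 to 1133 lower, 2 to 8 and 0 to 18 Phase I genes, and 1 to 10 and 0 to 5 partners; the highest counts were those without the LDL culture of mouse 2, and the lowest over all genes were those without the LDL culture of mouse 3. Without both libraries of mouse 3 all counts were 0. With the block and without mouse 1, 2 or 3, they were 758, 1604 and 265 higher and 327, 1348 and 77 lower for all genes, 10, 11 and 8 and 15, 18 and 7 for Phase I genes, and 10, 10 and 6 and 3, 3 and 2 for partners. The cause of these differences was not tested.

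The alternatives were run gene by gene for the 54 named genes. Of these, none of the 4 Phase I genes and 6 partners called without the block changed sign under an alternative. Some uncalled named genes did when 1 library was left out, with log2 fold changes from -0.0546 to 0.94 for Adh1, -0.22 to 0.096 for Aldh9a1, -0.51 to 0.34 for Cyp1a1, -0.39 to 1.12 for Cyp1a2, -0.19 to 0.072 for Cyp2c55, -0.45 to 0.14 for Cyp3a25 and -0.33 to 0.20 for Fmo4. Aldh9a1 was also at 0.024 without mouse 3, with or without the block, at 0.068 with the block and without mouse 1, at 0.014 with DESeq2 and at 0.018 with edgeR. With the block and 1 mouse left out, Cyp1a1 was at 0.19 and Cyp2c55 at 0.019 without mouse 2, and Cyp3a25 was at 0.022 without mouse 1. Fits with the block that leave out a mouse were chosen after seeing the data.

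These are 3 mice, and with 3 values against 3 an exact two-sided permutation test of a single gene that ignores the pairing cannot give a p under 0.10. A test that exchanges labels only within mice has a higher limit still. The duration and dose of LDL were the same in all treated cultures. Genes with few reads are limited by depth, and reads on close paralogs by how the counting split them.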
